A study of Mus musculus with 9 samples.

Results

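The 5 genes described here encode parts of the killing machinery of natural killer (NK) cells and cytotoxic T cells: Gzma, Gzmb, Prf1, Nkg7 and Klrd1. They were chosen by name, as every probe set of the array whose annotated gene symbol was exactly one of these. Of the 12488 probe sets, 4 met the rule, one each for Gzma (102995_s_at), Gzmb (102877_at), Prf1 (93931_at) and Klrd1 (93677_at); no probe set carried the symbol Nkg7 alone, and that gene was not analysed here. The arrays measured CD11b+ spleen cells, sorted from female mice that were 8 to 12 weeks old, on the Affymetrix MG-U74Av2 mouse array. There were 3 groups of 3 arrays: cells of tumor-bearing mice kept for 24 h in complete medium (cultured), cells of tumor-bearing mice at time 0 (fresh), and uncultured cells of tumor-free mice (tumor-free). The tumor and the mouse strain are not named in the labels. The labels do not say whether the 3 replicates of a group are separate mice. The p-values therefore reflect the spread among these arrays alone, and part or all of it may be technical.

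Cytotoxic lymphocytes store perforin and granzymes in secretory lysosomes and release them onto a target cell. Perforin, the product of Prf1, forms pores in the target membrane. Granzymes are serine proteases that enter through those pores: granzyme B (Gzmb) cleaves after aspartate and activates caspases, and granzyme A (Gzma) cleaves after basic residues. Nkg7 is a protein of the granule membrane needed for degranulation, and Klrd1 (CD94) is the receptor subunit that pairs with NKG2 proteins to recognise the class Ib molecule Qa-1 in the mouse. CD11b, the integrin chain encoded by Itgam, marks neutrophils, monocytes and macrophages, and mature NK cells also carry it.

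Promoters are shown for the 3 granule genes measured, because their signals were all highest on the same array, the third cultured one. The RefSeq promoter table (build GRCm38.p6) held 4 of the 5 genes, Klrd1 being the exception. Each promoter below runs from 250 bases before to 50 bases after the start site, 5′ to 3′ on the gene's own strand. Capitals mark the core sites of 3 factor families of cytotoxic lymphocytes, searched on both strands. The RUNX core was searched as TGTGGT, which on the opposite strand reads ACCACA. The AP-1 site was searched as TGANTCA. The T-box core was searched as TCACAC, which on the opposite strand reads GTGTGA. No match overlapped another in these promoters. Gzma lies at chr13:113100932-113101231 on the minus strand, Gzmb at chr14:56262285-56262584 on the minus strand, and Prf1 at chr10:61297586-61297885 on the plus strand.
Gzma: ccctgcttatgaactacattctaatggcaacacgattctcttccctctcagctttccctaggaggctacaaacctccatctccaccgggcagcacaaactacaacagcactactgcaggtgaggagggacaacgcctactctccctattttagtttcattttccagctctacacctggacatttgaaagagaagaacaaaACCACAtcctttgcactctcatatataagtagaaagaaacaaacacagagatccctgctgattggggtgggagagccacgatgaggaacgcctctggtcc
Gzmb: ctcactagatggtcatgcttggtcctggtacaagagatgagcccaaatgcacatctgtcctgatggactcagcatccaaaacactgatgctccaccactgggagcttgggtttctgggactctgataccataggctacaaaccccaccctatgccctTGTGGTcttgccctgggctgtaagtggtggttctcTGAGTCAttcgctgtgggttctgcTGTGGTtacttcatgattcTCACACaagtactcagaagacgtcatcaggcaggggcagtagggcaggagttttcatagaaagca
Prf1: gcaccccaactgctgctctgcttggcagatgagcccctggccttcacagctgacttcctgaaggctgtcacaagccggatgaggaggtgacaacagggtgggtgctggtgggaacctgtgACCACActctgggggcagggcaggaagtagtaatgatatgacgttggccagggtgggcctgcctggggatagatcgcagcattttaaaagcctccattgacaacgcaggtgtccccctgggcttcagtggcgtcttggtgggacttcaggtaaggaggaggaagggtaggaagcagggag
The Gzma promoter held 1 RUNX core, at -50 from the start site. The Gzmb promoter held 2 RUNX cores, at -93 and -34, an AP-1 site at -58 and a T-box core at -15. The Prf1 promoter held 1 RUNX core, at -130. Of all 32544 promoters in the table, 16.7% held a RUNX core, 7.79% an AP-1 site and 14.3% a T-box core on either strand, so a single RUNX core is a common match.

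The deposited values are MAS5 signals, a linear intensity per probe set. The trimmed mean lay between 100.06 and 100.08 on every array, and the median signal between 33.4 and 42.8. Differences are given as log2 fold changes of the signal plus an offset of 7.83, the 20th percentile of all values, a scale that understates changes of dim genes. Itgam, the gene of the CD11b named in the labels, read 244 to 954 over the 9 arrays. S100a8, a calprotectin subunit of neutrophils and monocytes that the labels do not name, read 7642 to 17393. Replicate 1 of the tumor-free group and replicate 3 of the cultured group stood apart from their groups. The first tumor-free array correlated at most at r = 0.887 with its own group and at 0.907 with the second cultured array, and the third cultured array at most at 0.916 within its group and at 0.914 with the second tumor-free array. RNA quality also varied within groups. The ratio of 3′ to 5′ actin signal was 2.27, 2.36 and 1.16 on the cultured arrays. It was 1.60, 1.58 and 1.35 on the fresh arrays and 2.57, 0.994 and 1.19 on the tumor-free arrays. The arrays that stood apart, the third cultured and the first tumor-free, were also those farthest in this ratio from the rest of their group. The mean log2 signal of the array's bacterial spike-in controls split the arrays at its median into a high class (the first and second cultured, first and second fresh and first tumor-free arrays) and a low class (the other arrays).

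Gzmb was the member whose signal lay above the array median on all 9 arrays. Its signals were 81.4, 57.8 and 341 on the cultured arrays, 87.5, 77.5 and 54.7 on the fresh arrays and 40.3, 56.6 and 60.6 on the tumor-free arrays. The third cultured array was 3.90-fold above the highest of the other 8, and the groups overlapped in every comparison. Means were 160 ± 157 in cultured, 73.2 ± 16.8 in fresh and 52.5 ± 10.7 in tumor-free cells (SD, n = 3 each). The log2 fold change was 0.67 for cultured against fresh cells (95% interval -0.48 to 1.82, adjusted p = 0.598, limma), and -0.06 without the third cultured array. For cultured against tumor-free cells it was 1.09 (-0.06 to 2.24, adjusted p = 0.389), and 0.36 without that array. For fresh against tumor-free cells it was 0.42 (-0.73 to 1.57, adjusted p = 0.707). Within the high spike-in class, which lacks the third cultured array, Gzmb was at -0.24 for cultured against fresh cells (adjusted p = 0.593); within the low class, where that array faced 1 fresh array, it was at 2.48.

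Gzma lay above the array median on 2 of 9 arrays. Its signals were 26.9, 19.3 and 109 on the cultured arrays, 36.8, 28.7 and 19.3 on the fresh arrays and 29.2, 30.9 and 69.3 on the tumor-free arrays. The highest readings were again the third cultured array, followed by the third tumor-free one, and no pair of groups was separated. Means were 51.8 ± 49.9 in cultured, 28.3 ± 8.72 in fresh and 43.1 ± 22.7 in tumor-free cells (SD, n = 3 each). The log2 fold changes were 0.44 for cultured against fresh cells (-0.72 to 1.60, adjusted p = 0.759), -0.00 for cultured against tumor-free cells (-1.17 to 1.16, adjusted p = 0.9997) and -0.44 for fresh against tumor-free cells (-1.61 to 0.72, adjusted p = 0.697). Without the third cultured array, the value for cultured against fresh cells was -0.20. It was -0.39 within the high spike-in class (adjusted p = 0.494) and 2.11 within the low class.

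Prf1 lay below the array median on all 9 arrays. It fell under the filter that left out the 30% of probe sets with the lowest mean, and was not tested across all probe sets. Its signals were 7.41, 24.8 and 39.0 on the cultured arrays, 32.1, 28.2 and 10.9 on the fresh arrays and 4.75, 5.86 and 7.62 on the tumor-free arrays. All 3 tumor-free arrays read below the offset of 7.83 and all 3 fresh arrays above it, so the fresh and tumor-free groups did not overlap; 9.35% of all 12422 probe sets other than controls were separated in that direction. Means were 23.7 ± 15.8 in cultured, 23.8 ± 11.3 in fresh and 6.08 ± 1.45 in tumor-free cells (SD, n = 3 each). The fresh minus tumor-free difference was 1.11 on the log2 scale, with an exact two-sided permutation p of 0.1, the smallest that 3 against 3 arrays can give. Within the high spike-in class, which holds a single tumor-free array, it was 1.59. Within the low class, which holds a single fresh array, it was 0.37. For cultured against tumor-free cells the difference was 1.04 (exact permutation p = 0.2) and for cultured against fresh cells -0.07 (exact permutation p = 0.9). No detection calls were used, so whether signals this low exceed the array's background is unknown.

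Like Gzma (-0.44) and unlike Gzmb (0.42) and Prf1 (1.11), Klrd1, the receptor gene, had a negative log2 fold change for fresh against tumor-free cells. Its signals were 43.6, 41.5 and 22.6 on the cultured arrays, 27.2, 19.2 and 12.6 on the fresh arrays and 41.3, 76.5 and 104 on the tumor-free arrays. Every fresh array read below every tumor-free array, and the cultured arrays overlapped both groups. Separation in this direction held for 13.1% of the tested probe sets. Means were 35.9 ± 11.6 in cultured, 19.7 ± 7.32 in fresh and 73.8 ± 31.2 in tumor-free cells (SD, n = 3 each). The log2 fold change for fresh against tumor-free cells was -1.52 (SE 0.38, 95% interval -2.37 to -0.68) with an adjusted p of 0.0774 over 8695 probe sets in limma. Leaving out the first tumor-free array gave -1.85 with an adjusted p of 0.0160, the only one of the 9 arrays whose removal brought Klrd1 past the threshold of 0.05. The fold change was 0.66 for cultured against fresh cells (-0.18 to 1.51, adjusted p = 0.439) and -0.86 for cultured against tumor-free cells (-1.70 to -0.02, adjusted p = 0.345). Within the high spike-in class, whose only tumor-free array is the first, the fresh minus tumor-free value of Klrd1 was -0.67. Within the low class, with a single fresh array, it was -2.24. The part of RNA quality in this difference was not tested. In bulk samples such as these, fewer cells of a type and less RNA per cell cannot be told apart.

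**Figure D1:**
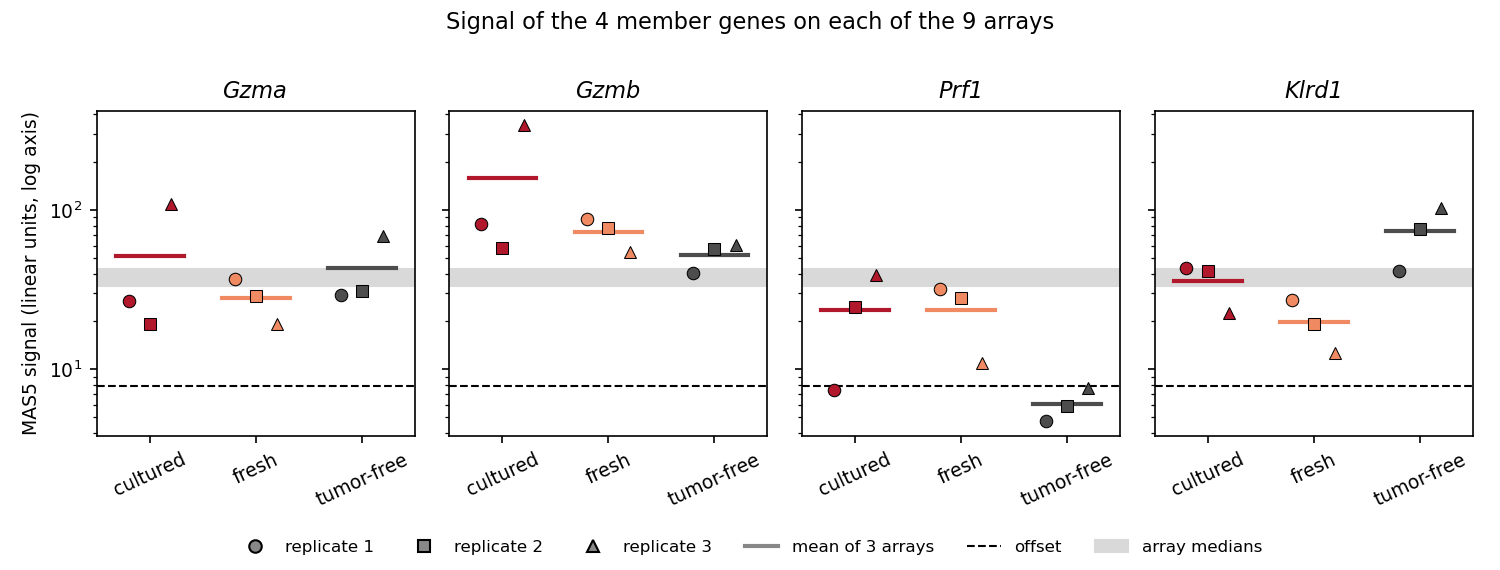
MAS5 signal (logarithmic axis) of Gzma, Gzmb, Prf1 and Klrd1 on each array, grouped as cultured, fresh and tumor-free; points are arrays with a marker shape per replicate number, lines are group means, the grey band spans the medians of the 9 arrays and the dashed line is the offset. Gzmb reached 341 on the third cultured array against at most 87.5 elsewhere, and Klrd1 read 12.6 to 27.2 on fresh arrays against 41.3 to 104 on tumor-free arrays.

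None of the 3 tested members passed an adjusted p of 0.05 in any comparison. Of all tested probe sets, 1.90% passed it for fresh against tumor-free cells, 2.69% for cultured against fresh cells and 1.23% for cultured against tumor-free cells. At an unadjusted p under 0.05, 1 member passed for fresh against tumor-free cells (Klrd1, beside 16.7% of probe sets), 0 for cultured against fresh cells (16.3%) and 1 for cultured against tumor-free cells (Klrd1, 14.1%). The intervals are wide: for Gzmb, cultured against fresh cells, they leave values from -0.48 to 1.82 on the log2 scale compatible with these arrays. The 3 comparisons share their groups pairwise and are not independent of each other.

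**Figure D2:**
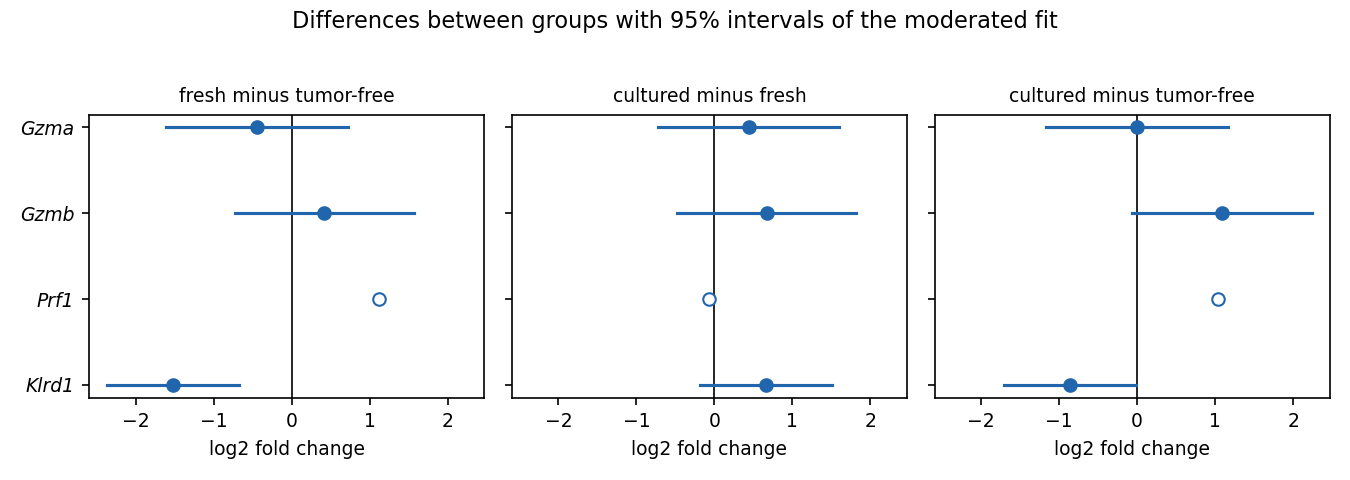
Log2 fold changes of the 3 tested members in the 3 comparisons, with 95% confidence intervals from limma; Prf1, which was below the filter, is drawn as an open point without an interval. The interval of Klrd1 for fresh against tumor-free cells ran from -2.37 to -0.68, while those of Gzma and Gzmb crossed 0 in all 3 comparisons.

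Over the 9 arrays, Gzma and Gzmb correlated at r = 0.747 on the log2 scale, and at 0.135 without the third cultured array. Gzmb and Prf1 correlated at r = 0.674, and at 0.601 without that array. Klrd1 correlated negatively with Gzmb (r = -0.316, and -0.195 without it) and with Prf1 (r = -0.557, and -0.509 without it). Gzma correlated with Klrd1 at r = 0.202, and at 0.66 without it, and with Prf1 at r = 0.296, and at -0.194 without it. These values describe 9 arrays in 3 groups and have no test. They share the array's scaling and RNA quality. All 3 values of Gzma depended on the third cultured array: without it, those with Gzmb and Prf1 fell and that with Klrd1 rose.

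The genes whose profiles over the 9 arrays were most like the mean of the 3 tested members were Stard3 (r = 0.93), Cpsf3 (0.93), Atg7 (0.92), Mrpl2 (0.91), Iigp1 (0.91), Psmc3 (0.91), Frg1 (0.90), H2-D4 (0.90), Psmc2 (0.89) and Gnpda1 (0.89), by Pearson's r of log2 signals. Psmc2 and Psmc3 encode ATPases of the proteasome's regulatory particle, and Atg7 an enzyme of autophagy. All of these genes were highest on the third cultured array except Frg1 and Gnpda1, which were highest on the third tumor-free array. They were picked for the highest r among the tested probe sets, so their r values have no test. Closest to Gzma alone were Frg1 (0.92), Gnpda1 (0.90) and Psmc3 (0.90). Closest to Gzmb were Ube2l6 (0.95), the conjugating enzyme of the ubiquitin-like protein ISG15, Ncf1 (0.95), a subunit of the phagocyte NADPH oxidase, and Ighg3 (0.94), an immunoglobulin heavy chain gene. All 3 shared the high reading of the third cultured array: Ube2l6 read 54.7, 63.7 and 411 on the cultured arrays and 29.4 to 67.4 on the other 6. Closest to Klrd1 were Nedd1 (0.95), Dguok (0.94) and Itgb5 (0.94), a beta integrin chain. None of these neighbours was on the lists of NK and cytotoxic genes described next.

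The wider cytotoxic programme was read through 85 other genes in 5 lists, of which 61 had a probe set of their own and 46 were tested. For fresh against tumor-free cells 1 gene was higher (Id2) and 0 were lower, with a median log2 fold change of 0.19 against 0.01 over all tested probe sets. For cultured against fresh cells 2 were higher (Klrb1b and Irf8) and 0 lower, with a median of -0.00 against 0.02. For cultured against tumor-free cells 0 were higher and 1 was lower (Cd244a), with a median of 0.23 against 0.05. Of all tested probe sets, 1.90%, 2.69% and 1.23% passed in these 3 comparisons. At an unadjusted p under 0.05 (limma) the counts of list genes were 5, 13 and 10 of 46. The shares of all tested probe sets at that level were 16.7%, 16.3% and 14.1%.

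Other granzymes were dim. Of 8 genes, 6 were on the array and 1 was tested, and it passed in none of the comparisons. Gzmg read 45.6, 35.6 and 17.8 on cultured, 42.7, 41.6 and 16.8 on fresh and 16.9, 29.8 and 24.5 on tumor-free arrays, with log2 fold changes of -0.02 for cultured against fresh, 0.33 for cultured against tumor-free and 0.35 for fresh against tumor-free cells. Gzmc, which was not tested, read 4.70, 2.81 and 24.97 on cultured, 3.90, 5.05 and 14.8 on fresh and 0.91, 1.55 and 1.82 on tumor-free arrays. Another Gzmc probe set, also not tested, did not share this pattern. It read 5.42, 4.51 and 3.90 on cultured, 4.09, 3.71 and 1.61 on fresh and 5.58, 2.43 and 4.64 on tumor-free arrays. Gzmm, also not tested, read 5.22 to 15.7 over the 9 arrays. Between 3 and 5 of the 6 genes lay at or below the offset on each array.

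Among NK receptors and their adaptors, 16 of 27 genes were on the array and 13 were tested. Klrb1b, an inhibitory lectin-like receptor, was higher in cultured than in fresh cells. It read 106, 208 and 113 on cultured, 55.4, 30.04 and 22.0 on fresh and 89.2, 32.8 and 56.6 on tumor-free arrays, and its log2 fold change for cultured against fresh cells was 1.79 ± 0.41 (SE, adjusted p = 0.0460, limma). Every cultured array read above every fresh and tumor-free array. Separation in this direction held for 13.4% of tested probe sets against fresh and 10.3% against tumor-free cells. The call was lost without any one of the first or second cultured, the 3 fresh or the third tumor-free arrays, with adjusted p up to 0.192. A probe set annotated to both Klrb1b and Klrb1c, not given to either gene, overlapped between these groups. It read 43.7, 53.2 and 17.4 on cultured and 43.3, 23.2 and 44.5 on fresh arrays. The list had no common direction for cultured against fresh cells. Of its 13 tested genes, 7 had a log2 fold change above 0 and 6 below, with a median of 0.01. Klra2 was lower in cultured than in fresh cells without overlap (-1.10, adjusted p = 0.0791, limma), as held for 8.81% of tested probe sets.

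Cd244a, the SLAM-family receptor 2B4 found on NK cells and on some myeloid and T cells, was lower in cultured than in tumor-free cells. It read 38.1, 34.1 and 26.7 on cultured, 74.5, 69.7 and 44.6 on fresh and 81.7, 206 and 172 on tumor-free arrays. The 3 groups did not overlap, cultured being lowest and tumor-free highest. Separation in these directions held for 8.20% of tested probe sets (cultured against tumor-free), 8.81% (cultured against fresh) and 13.1% (fresh against tumor-free). The log2 fold change was -1.90 ± 0.35 for cultured against tumor-free cells (SE, adjusted p = 0.0283, limma), while -1.12 for fresh against tumor-free (adjusted p = 0.138) and -0.78 for cultured against fresh cells (adjusted p = 0.307) did not pass. The call held without the first tumor-free or the third fresh array and was lost without any one of the other 7, with adjusted p up to 0.150. Cd244a ran against most of its list. For cultured against tumor-free cells, 9 of the 13 tested receptors and adaptors had a log2 fold change above 0, with a median of 0.17.

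Genes of granule biogenesis and release gave 0 calls in each comparison: 13 of 18 were on the array and 11 were tested, with 0, 3 and 1 at an unadjusted p under 0.05 for fresh against tumor-free, cultured against fresh and cultured against tumor-free cells. Lamp1, a lysosomal membrane protein that reaches the cell surface on degranulation and is found in all cells, had log2 fold changes of 0.13 for fresh against tumor-free, -0.02 for cultured against fresh and 0.10 for cultured against tumor-free cells. Srgn encodes serglycin, the proteoglycan that holds granzymes in the granule and is also abundant in myeloid cells. It read 606, 415 and 284 on cultured, 1441, 1288 and 1272 on fresh and 2674, 548 and 454 on tumor-free arrays. Cultured arrays lay below all fresh arrays, as held for 8.81% of tested probe sets, with a log2 fold change of -1.66 (adjusted p = 0.158, limma). The first tumor-free array was far above the other tumor-free ones. Lamp2, a second lysosomal membrane protein, had log2 fold changes of 0.15 for fresh against tumor-free, -0.32 for cultured against fresh and -0.17 for cultured against tumor-free cells. Another tested probe set of Lamp2 ran the other way in both comparisons with cultured cells. Its mean log2 signal was 7.90 in cultured, 7.50 in fresh and 7.13 in tumor-free cells.

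Killing ligands and NK cytokines gave 0 calls as well, with 9 of 9 genes on the array and 6 tested (0, 3 and 3 at an unadjusted p under 0.05). The chemokine gene Ccl3 read 709, 191 and 618 on cultured, 1714, 1369 and 1699 on fresh and 3412, 450 and 412 on tumor-free arrays, with a log2 fold change of -1.83 for cultured against fresh cells (adjusted p = 0.230). Ltb, lymphotoxin beta, read 88.4, 102 and 793 on cultured, 398, 423 and 1478 on fresh and 394, 1938 and 1888 on tumor-free arrays. Its value for cultured against tumor-free cells was -2.48 (adjusted p = 0.218). Ccl5, a chemokine of NK cells, T cells and activated myeloid cells, read 2387, 5020 and 804 on cultured, 177, 201 and 500 on fresh and 5.57, 193 and 205 on tumor-free arrays, and every cultured array lay above every other array. Its log2 fold change for cultured against tumor-free cells was 4.69 with an adjusted p of 0.0502 (limma), which missed the threshold. Cultured arrays lay above all fresh arrays for 13.4% of tested probe sets, and above all tumor-free arrays for 10.3%.

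Of the regulators of NK and cytotoxic lineages, 17 of 23 were on the array and 15 were tested. Id2, an inhibitor of E-protein DNA binding that NK cells need for their development and that myeloid cells also express, was higher in fresh than in tumor-free cells. It read 2360, 2898 and 2325 on cultured, 4239, 3324 and 4185 on fresh and 1534, 1130 and 1239 on tumor-free arrays. No groups overlapped. Fresh arrays lay above all tumor-free arrays for 9.34% of tested probe sets. The log2 fold change for fresh against tumor-free cells was 1.59 ± 0.26 (SE, adjusted p = 0.00996, limma); the call was lost without the second or the third tumor-free or the first fresh array, with adjusted p up to 0.0795. Irf8, a transcription factor of monocytes, dendritic cells, B cells and NK cells, was higher in cultured than in fresh cells. It read 434, 954 and 347 on cultured, 173, 157 and 95.4 on fresh and 339, 489 and 494 on tumor-free arrays. Fresh arrays lay below all the others. Fresh arrays were below all cultured arrays for 13.4% of tested probe sets, and below all tumor-free arrays for 13.1%. The log2 fold changes of Irf8 were 1.87 ± 0.38 for cultured against fresh cells (SE, adjusted p = 0.0253, limma) and -1.61 for fresh against tumor-free cells (adjusted p = 0.0642). The first of these calls was lost without any one of the 3 fresh or the first or second cultured arrays, with adjusted p up to 0.0860.

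**Figure D3:**
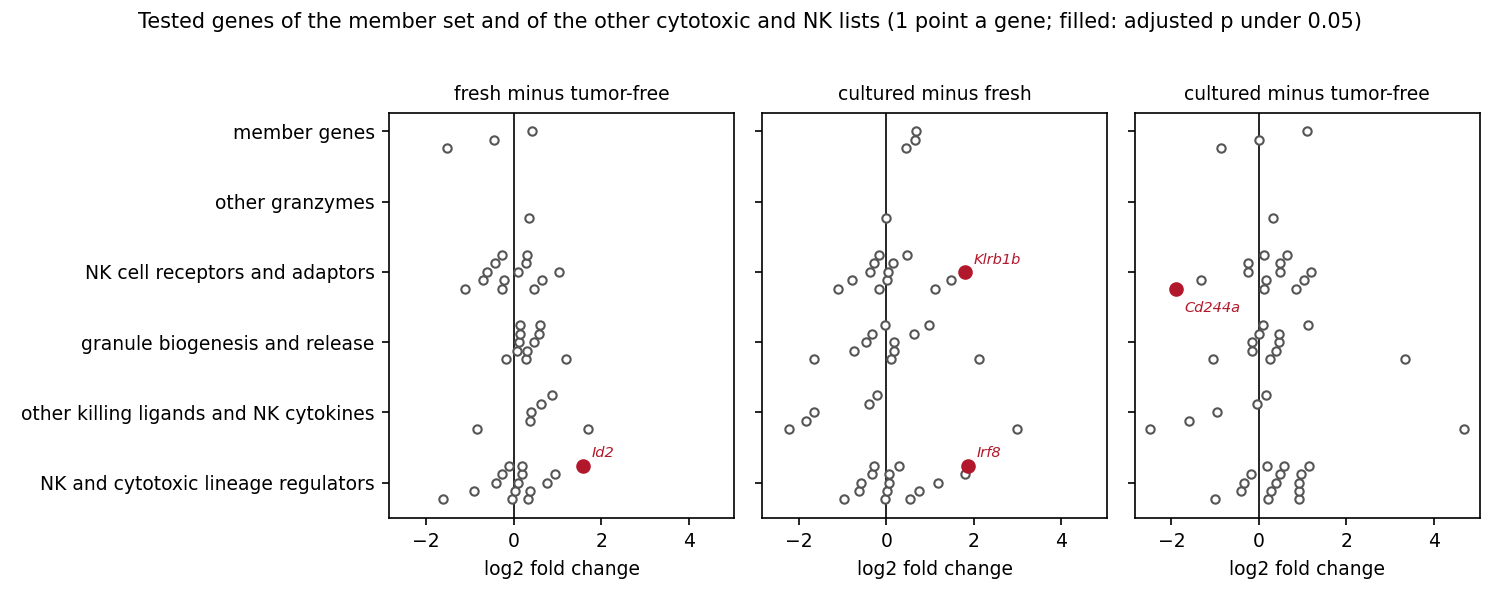
Log2 fold changes of the tested genes of the 5 lists in the 3 comparisons, 1 point a gene (1 probe set each), with the 3 tested members in the top row; filled and named points are past an adjusted p of 0.05. Only Id2, Klrb1b, Irf8 and Cd244a were past the threshold, out of 46 genes tested.

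Markers of the cell types that could carry these transcripts were measured beside them. Of the NK marker list, 11 of 15 genes were on the array, and their summed signal was 302 to 377 in cultured, 406 to 502 in fresh and 502 to 538 in tumor-free cells. The separation of that sum was lost without Cd244a. The sums were then 268 to 351 in cultured, 348 to 432 in fresh and 296 to 456 in tumor-free cells and overlapped. Sums without another gene were not computed, and Il18rap alone read up to 298, on the first tumor-free array. The mean log2 signal of the 8 tested NK markers overlapped too, at 5.28 to 5.41 in cultured, 5.03 to 5.80 in fresh and 5.31 to 5.86 in tumor-free cells. Within the list only Cd244a passed the test, and the defining NK receptor Ncr1 read 2.26 to 20.8, below the filter. T cell markers summed to 544 to 809 in cultured, 650 to 819 in fresh and 653 to 763 in tumor-free cells over 16 of 22 genes, with 0 of 11 tested called in any comparison (0, 1 and 0 at an unadjusted p under 0.05 for fresh against tumor-free, cultured against fresh and cultured against tumor-free cells). Their brightest genes were Lat, Ptprcap and Cd4, while Cd8a and Cd8b1, the coreceptor of cytotoxic T cells, read below the offset on all 9 arrays, at most 5.85.

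B cell markers varied within groups: they summed to 868, 584 and 2302 on cultured, 1319, 1476 and 1576 on fresh and 312, 3097 and 3520 on tumor-free arrays, with 0 of 10 genes called in any comparison and Ighm, Ms4a1 and Cd79a brightest. The third cultured array, where Gzma, Gzmb and Prf1 were highest, also had the highest B cell sum of its group. Of 18 neutrophil and monocyte markers it was the highest array for 3, Itgam (954), Itgb2 and Ly6g (3562, against 93.6 to 957 on the other 8), and not for the other 15; the list's sum was 54516 there, below all fresh arrays. Of the mast cell and basophil markers, 14 of 15 on the array and 8 tested, Kit alone passed, being lower in cultured than in tumor-free cells (log2 fold change -1.61, adjusted p = 0.0406). In that comparison 6 of the 8 had a log2 fold change above 0, with a median of 0.18, and the sums were 527 to 1408 in cultured, 2095 to 3230 in fresh and 882 to 2524 in tumor-free cells. The part of these markers in the members' values was not tested.

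Fresh cells differed from the other groups in genes outside the blood lineages. Exocrine pancreas markers summed to 580 to 1211 in cultured, 13349 to 22659 in fresh and 620 to 902 in tumor-free cells. Of 12 tested, 11 were higher in fresh than in tumor-free cells and 11 lower in cultured than in fresh cells, namely Prss2, Ctrb1, Reg1, Reg2, Reg3a, Reg3b, Pnliprp1, Cela2a, Cel, Zg16 and Sycn, which encode digestive enzymes and secreted proteins of acinar cells. This moved with the same contrast as the low Klrd1 signal, and its part in that was not tested. Among other markers, Ccr7, the homing receptor of mature dendritic cells, was higher in cultured than in tumor-free cells (2.42, adjusted p = 0.0115), a call lost without the second cultured array (adjusted p = 0.0575). Of the 6 dendritic cell markers tested, 4 had a log2 fold change below 0 in that comparison, with a median of -0.39. The neutrophil genes Mpo (-3.68, adjusted p = 0.0409) and Prtn3 (-2.56, adjusted p = 0.0355) were lower in cultured than in fresh cells, and the growth factor receptor gene Csf3r was lower in fresh than in tumor-free cells (-1.31, adjusted p = 0.0413) and in cultured than in tumor-free cells (-1.79, adjusted p = 0.0133). Csf3r ran against most of its list: 15 of the 18 neutrophil and monocyte markers had a log2 fold change above 0 for fresh against tumor-free cells, with a median of 0.805. The list summed to 39250 to 58546 in cultured, 62986 to 73248 in fresh and 48244 to 58843 in tumor-free cells. Leaving out 1 array raised the adjusted p to as much as 0.167 for Mpo, 0.136 for Prtn3, 0.195 for Kit, and 0.202 and 0.0814 for the 2 Csf3r values. A second probe set of Mpo read -0.27 for cultured against fresh cells (adjusted p = 0.719), and the further probe sets of Csf3r read -0.89 and -0.08 for fresh against tumor-free cells, all without a call.

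**Figure D4:**
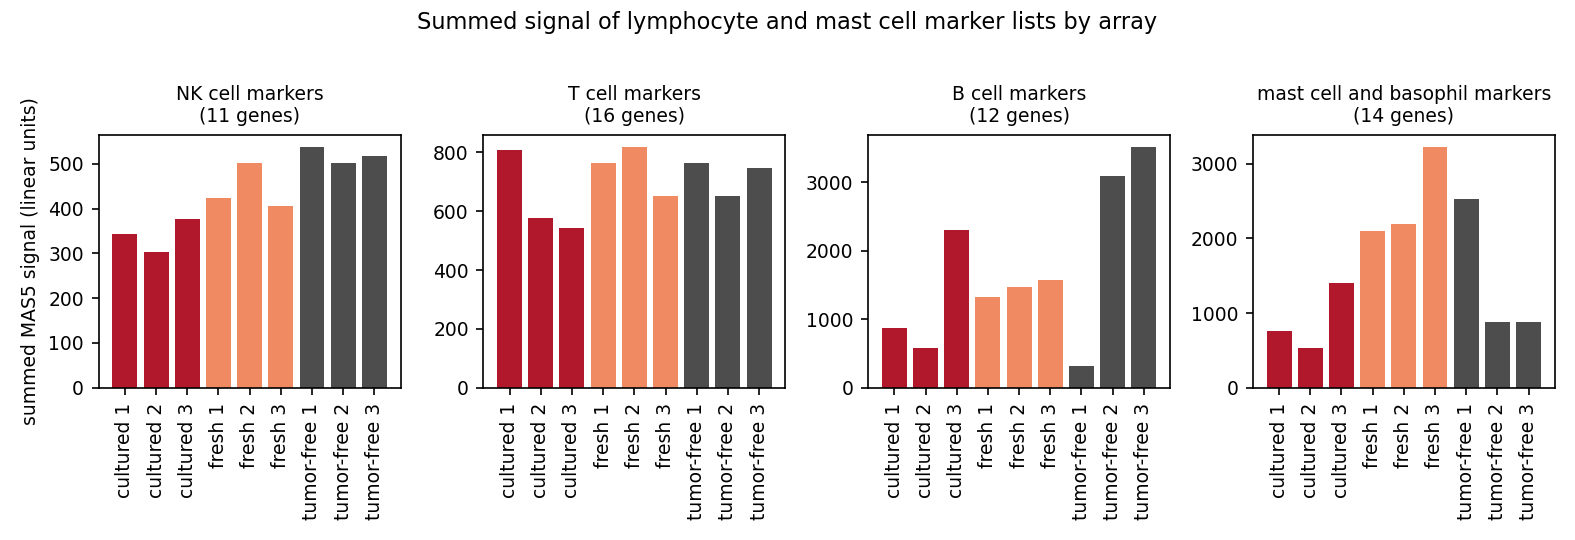
Summed MAS5 signal of NK, T cell, B cell and mast cell or basophil markers on each array (own linear axis per panel, from 0), grouped as cultured, fresh and tumor-free. The NK sum ran from 302 to 377 on cultured, 406 to 502 on fresh and 502 to 538 on tumor-free arrays, a separation lost without Cd244a. The mean log2 signal of the 8 tested NK markers overlapped between all groups. The B cell sum spread from 312 to 3520 within the tumor-free group alone.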

How the data were processed

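Signals came from 9 Affymetrix MG-U74Av2 arrays, 3 per group. The deposited values are linear intensity signals that the authors computed with MAS5, per the submitters' processing notes. Its version and its scaling target were not given in the sources used here. Probe sets were named through the platform annotation given with the series, with symbols checked by gene ID: 10855 had 1 symbol, 396 several and 1237 none, and none with several was given to a gene. From these signals, log2(signal + 7.83) was taken, with an offset set at the 20th percentile of the deposited signals. The 30% of lowest mean among 12422 probe sets other than controls were left out. The other 8695 were fitted with 1 mean per group over all 9 arrays (limma 3.58.1 in R 4.3.3, intensity trend, 6 residual degrees of freedom), with Benjamini-Hochberg adjustment and a threshold of 0.05. The fit was tested on simulated data. Prf1, below the filter, was compared by an exact permutation test. Each gene of several probe sets was read from the one of highest mean. Precision is limited by the number of arrays.

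The members and the gene lists were chosen with earlier results of these data known. Each list gene called in any comparison was named, or where none was, up to 3 of highest mean signal, along with the 10 genes most like the members' mean profile and 3 most like each tested member. Gzmc and Gzmm are named by mean although they were not tested; Ncr1, Cd8a, Cd8b1, Itgam, Itgb2, S100a8 and Ly6g were named after their values were seen. Alternatives covered normalization, offset, filter, variance trend, probe set choice, groups in the fit, left-out arrays, the replicate number and the spike-in class.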

Additional observations from a re-analysis of the deposited data

How the results depend on the processing

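Of 252 member values recomputed, under 21 alternatives each, 229 were scored as unchanged. For the tested members this meant the same direction and side of the threshold. For Prf1, which had no adjusted p in the main fit, it meant a shift smaller than its SD within groups, whatever the sign. The Prf1 value for cultured against fresh cells ran from -0.43 to 0.38 with 1 array left out. The count of members called stayed at 0 under all 10 alternatives that kept the 9 arrays. It was 1 within the low spike-in class for fresh against tumor-free cells (Klrd1, -2.24), 2 there for cultured against fresh cells (Gzma 2.11 and Gzmb 2.48) and 3 there for cultured against tumor-free cells (Gzma, Gzmb 2.39 and Klrd1 -1.67); that class holds a lone cultured and a lone fresh array, so those calls rest on the spread of 2 tumor-free arrays. Leaving out 1 array gave 0 to 1 called members for fresh against tumor-free cells and 0 for the other comparisons. Gzma for cultured against tumor-free cells changed sign to 0.037 with the offset at the 40th percentile, 0.21 with spike-in class as block, 1.10 within the low class, and -0.64 to 0.41 with arrays left out. Within the high class Gzma was 0.13 for fresh against tumor-free and -0.39 for cultured against fresh cells, where Gzmb was -0.24. Klrd1 was 0.036 there for cultured against tumor-free cells. That class holds a single tumor-free array, on which its values against tumor-free cells rest. For cultured against fresh cells, leaving out arrays gave -0.20 to 0.85 for Gzma and -0.061 to 1.14 for Gzmb, the lowest of both without the third cultured array. Within the low class Gzmb was -0.086 for fresh against tumor-free cells. Prf1, for cultured against fresh cells, was -0.77 within the high and 1.32 within the low class.

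The number of other cytotoxic and NK genes called moved more. For fresh against tumor-free cells (1) it was 2 with only those groups fitted, 2 with the spike-in block, 3 within the high and 15 within the low class, and 0 to 6 with arrays left out. For cultured against fresh cells (2) it was 1 with arrays centred on the median, 1 with the offset at the 5th percentile, 1 with no filter, 1 with no intensity trend, 5 with only those groups, 5 with the spike-in block, 10 within the high and 11 within the low class, and 0 to 9 with arrays left out. For cultured against tumor-free cells (1) it was 2 with the offset at the 40th percentile, 2 with the lowest 50% left out, 0 with only those groups (11 at an unadjusted p under 0.05, limma), 3 with the spike-in block, 6 within the high and 14 within the low class, and 0 to 5 with arrays left out. With the replicate number as a block, the counts were 2 for fresh against tumor-free, 2 for cultured against fresh and 4 for cultured against tumor-free cells, with 0 members called. With 9 pairs of same-numbered arrays in different groups, the deviations from group means correlated at -0.2 to 0.259, with 5 above 0.1. Pairs of different number spanned -0.282 to 0.263. These overlapping ranges do not settle whether the numbers pair the arrays, and the main fit used no pairing. The same settings were applied to the called list genes after their values were seen: under the 9 settings that kept every array, Id2, Irf8, Cd244a, Ccr7 and Csf3r for cultured against tumor-free cells passed in all 9, Kit in 8, Prtn3 and Csf3r for fresh against tumor-free cells in 7, Mpo in 6 and Klrb1b in 5. The causes were not tested. Most members are dim, where MAS5 signals are least precise.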
